A study of Mus musculus with 10 samples.

Results

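Expression of the Wnt ligands, the Frizzled receptors and the secreted antagonists of the Sfrp and Dickkopf families was described in epididymal white adipose tissue (eWAT), the fat pad along the epididymis, of 10 mice. The genes were those whose symbol on the array starts with Wnt, Fzd, Sfrp or Dkk followed by a digit, which gave 37 of the 34797 gene names on the array and 44 probes: 19 Wnt genes, 10 Fzd genes, 4 Sfrp genes and 4 Dkk genes. The mice were C57BL/6JOlaHsd wildtype males (the strain label of the samples reads C57BL/6J), 9 weeks old at the start and kept at 29 degrees C throughout. They had 3 weeks of low fat diet and then 12 weeks of high-fat diet, received the iron chelator desferrioxamine (DFO, 100 mg/kg body weight) by daily injection for 5 days, and were killed on the next day after 2 h without food. All 10 mice form a single group, replicates 1 to 10, called mouse 1 to mouse 10 here, and the untreated animals of the wider study were not analysed here, so no value below is an effect of DFO or of diet. Each array held 1 mouse labelled with Cy5 against a Cy3 pool of labelled RNA from all samples of the wider study, untreated animals included, with no dye swap. A log2 ratio is log2 of Cy5 over Cy3 for one probe, so that 0 means equal brightness of mouse and pool; only differences between mice were read from it, since a constant dye effect cannot be told apart from a difference from the pool.

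Wnt proteins are secreted, lipid-modified ligands that bind Frizzled receptors, membrane proteins with a cysteine-rich outer domain. With the co-receptors Lrp5 and Lrp6 this stabilises beta-catenin, which acts with the TCF and LEF transcription factors, while other ligand and receptor pairs act through cell polarity and calcium without beta-catenin. Secreted Frizzled-related proteins (Sfrp) carry a Frizzled-like domain and bind Wnt ligands outside the cell, and Dickkopf proteins (Dkk) bind the co-receptors. In fat, beta-catenin signalling holds back the differentiation of preadipocytes, and Sfrp5 is known as an adipocyte product that binds Wnt5a.

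Each gene is measured through probes of 60 bases. The first 30 bases are given for the probes of *Sfrp5*, *Fzd4*, *Wnt5a* and *Wnt5b*, an antagonist, a receptor and the ligands that were low in the same mice, and for the *Fzd1* and *Fzd7* probes, since *Fzd1* and *Fzd7* ran the other way. Positions are in build mm9 and cover the whole probe, and the sequences come from the array's own annotation.
Sfrp5, chr19:42272509-42272568, - strand, from base 1792 of its transcript: attattgctactgctgtggggccgctgatt
Fzd4, chr7:96557478-96557537, + strand, from base 2542 of its transcript: acacacgtaaggtatccagtggatttctct
Wnt5a, chr14:29336664-29336723, + strand, from base 2316 of its transcript: cctaacccagaggttaccagcctggttttg
Wnt5b, chr6:119382550-119382609, - strand, from base 2310 of its transcript: gactgtcatctctgcccacatgtacagcgt
Fzd1, chr5:4754003-4754062, - strand, from base 4154 of its transcript: caaatgccgatacatacataggacctaaat
Fzd7, dimmer probe, chr1:59541367-59541426, + strand, from base 2376 of its transcript: agccccgactttacagtcttcatgatcaag
Fzd7, brighter probe, chr1:59543192-59543251, + strand, from base 4201 of its transcript: aagggaaggtgaacttcaaagtgattctgg
The *Fzd7* probes lie in the same transcript and did not give the same picture, as described with the receptors.

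Of the 37 genes, 20 were well above background in Cy5 on at least 5 of the 10 arrays, 17 on every array and 10 on none. By probe, 22 of the 44 passed at 5 arrays. Over the whole array 27718 of 55681 probes did so with a value in every mouse, so the members as a whole were near the share of all probes. The Frizzled receptors and the Sfrp antagonists were measured almost throughout: 8 of 10 Fzd genes and 4 of 4 Sfrp genes passed, against 7 of 19 Wnt genes and 1 of 4 Dkk genes. The ligands that passed were *Wnt1*, *Wnt4*, *Wnt5a*, *Wnt5b*, *Wnt9a*, *Wnt11* and *Wnt16*. *Wnt6*, *Wnt2*, *Wnt10a* and *Wnt10b*, the last a ligand known to block fat cell formation in culture, were each above background on 1 array. *Wnt2b*, *Wnt3*, *Wnt3a*, *Wnt7a*, *Wnt7b*, *Wnt8a*, *Wnt8b* and *Wnt9b* were not well above background on any array. The receptors *Fzd1* to *Fzd8* passed, while *Fzd9* and *Fzd10* were above background on 1 array each. *Dkk3* was above background on all 10 arrays and *Dkk2* on 3, whereas *Dkk1* and *Dkk4* were so on none. In the reference pool, 20 of the 37 genes also passed. Counted by mouse, between 18 and 21 of the genes were above background in Cy5, apart from mouse 2 with 25. Mouse 2 also had the most spots above background over the whole array, 33223 of 59305, against 27349 to 31236 in the other mice.

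**Figure D1:**
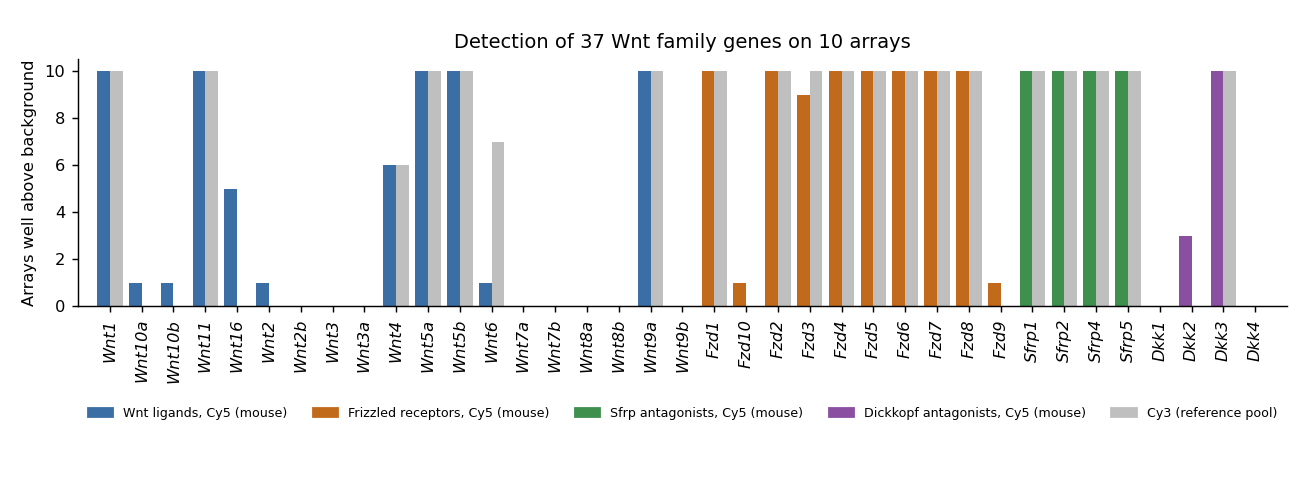
Number of the 10 arrays (vertical axis) on which the probe standing for each of the 37 genes (horizontal axis) was well above background, in Cy5 (the mouse, coloured by family) and in Cy3 (the reference pool, grey). All 4 Sfrp genes reach 10 arrays, while most of the Wnt ligands stay at 0 or 1.

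The tissue was checked first. *Adipoq*, *Plin1* and *Lep*, which encode the fat cell products adiponectin, perilipin 1 and leptin, were above background on all 10 arrays. Mice 4, 5, 6 and 7 stood apart from the other mice on the first principal component of 27718 probes, which held 75.1% of the variance, and mouse 2 stood apart on the second, with 8.81%. *Adipoq* lay between -2.78 and -1.63 in mice 4 to 7 and between -0.08 and 0.81 in the other 6 mice. These 4 mice are not a group of the study, and no test was made between them and the others. In bulk tissue, fewer cells of a type and less RNA per cell cannot be told apart, and this holds for every value below.

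For 15 of the 19 genes tested, the spread between mice exceeded that of the reference pool, which was the same RNA on each array. The spread in Cy5 also holds the separate isolation and labelling of RNA from each mouse, which the pool does not share. These steps cannot be told apart here from differences between the mice. The variance of log2 Cy5 over the 10 mice was compared with that of log2 Cy3 by the Pitman-Morgan test, two-sided, which asks whether paired values have unequal variances. P-values were adjusted (Benjamini-Hochberg) over the 25049 probes well above background in both channels on at least 5 arrays, at a threshold of 0.05. An adjusted p given below with a single gene is from this test over all 10 mice, unless a setting is named. None compares mice 4 to 7 with the others. Over all probes tested, 59.7% were called in that direction, so a call alone does not set these genes apart from the rest of the array. The 15 genes were 5 of 6 ligands (*Wnt4*, *Wnt5a*, *Wnt5b*, *Wnt9a*, *Wnt11*), 5 of 8 receptors (*Fzd1*, *Fzd3*, *Fzd4*, *Fzd6*, *Fzd7*), 4 of 4 Sfrp antagonists and *Dkk3*. *Wnt1*, *Fzd2*, *Fzd5* and *Fzd8* did not pass, and none of the 19 was called with Cy3 as the more variable channel. The median SD of the log2 ratio was 0.467 over these 19 probes and 0.185 over all probes tested. Without normalization between arrays, 11 of the 19 genes and 18.7% of all probes were called, and the calls of *Wnt4*, *Wnt9a*, *Sfrp1* and *Dkk3* were lost. Over the 6 mice other than 4 to 7, 5 of the 19 were called (*Fzd6*, *Sfrp1*, *Sfrp4*, *Sfrp5* and *Wnt11*) beside 14.2% of all probes.

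**Figure D2:**
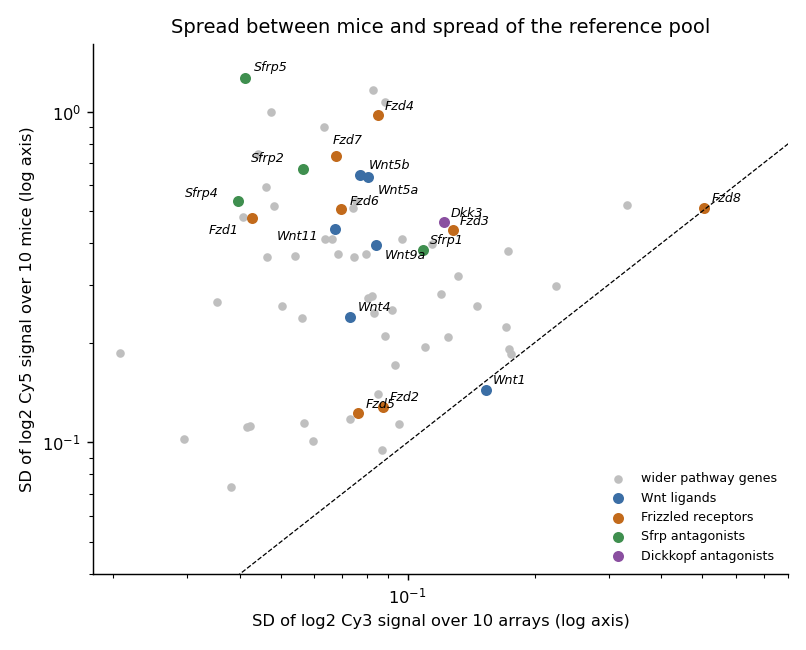
SD of log2 Cy5 over the 10 mice (vertical, log axis) against SD of log2 Cy3 of the reference pool over the same arrays (horizontal, log axis), 1 point for each of the 19 Wnt family genes tested (coloured by family) and for the wider pathway genes (grey); the dashed line marks equal spread. Sfrp5 lies highest, with 1.26 in Cy5 and 0.0412 in Cy3, while Fzd8 and Wnt1 lie on or near the line.

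Among the ligands, *Wnt5a* and *Wnt5b*, closely related ligands that mostly signal without beta-catenin, were low in the same mice. The log2 ratio of *Wnt5a* was -0.02, 0.19 and 0.04 in mice 1 to 3, -1.23, -1.27, -0.71 and -1.36 in mice 4 to 7, and 0.08, 0.02 and 0.02 in mice 8 to 10. The 4 lowest were mice 4 to 7, with a gap to the other 6, which lay close together. The highest mouse was 2.92-fold above the lowest, and the SD was 0.633 in Cy5 and 0.0808 in Cy3 (adjusted p = 3.42e-05). Over the 6 other mice alone, *Wnt5a* did not pass, with an SD in Cy5 below that in Cy3 (log2 of their ratio -0.27, adjusted p = 0.802). *Wnt5b* was 0.31, 0.52 and 0.35 in mice 1 to 3, -0.93, -0.80, -0.62 and -0.81 in mice 4 to 7, and 0.24, 0.40 and 0.32 in mice 8 to 10. Again mice 4 to 7 were lowest and did not overlap the others (Cy5 SD 0.645, Cy3 SD 0.0771, adjusted p = 6.18e-06).

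*Wnt11*, known for its part in cell movements of the embryo, lay between -0.76 and -0.32 in mice 4 to 7 and between -0.17 and 0.35 elsewhere (adjusted p = 3.09e-05). *Wnt9a*, a ligand of joint formation, lay between -0.68 and -0.40 in mice 4 to 7 and between 0.03 and 0.39 elsewhere (adjusted p = 0.000767). *Wnt4*, a ligand of kidney and gonad development, ranged from -0.28 in mouse 9 to 0.28 in mouse 2 (SD 0.218, adjusted p = 0.0042), and mice 4 to 7 were mixed with the others. *Wnt4* was above background on 6 arrays in each channel, and its call was lost with slide as a block (adjusted p = 0.271). The call rests on 1 probe, since the other *Wnt4* probe was not above background on any array (r between the probes 0.143). *Wnt1*, the founding member of the family, ranged only from -0.15 to 0.18, with a Cy5 SD of 0.144 and a Cy3 SD of 0.153 (adjusted p = 0.84), but passed with median centring (adjusted p = 0.0435). The other *Wnt1* probe was not above background on any array. *Wnt16* was above background in Cy5 on 5 arrays and in Cy3 on none, ranged from 0.00 to 0.31 and was not tested. It passed on 1 probe, since the other *Wnt16* probe was not above background on any array.

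Counted over the 19 genes tested, mice 4 to 7 held the 4 lowest log2 ratios for 10 genes, where 23.2% of all probes tested did the same. They held the 4 highest for 2 genes, *Fzd1* and *Fzd7*, against 19.2% of all probes. The 10 were *Wnt5a*, *Wnt5b*, *Wnt9a*, *Wnt11*, *Fzd3*, *Fzd4*, *Fzd6*, *Fzd8*, *Sfrp2* and *Sfrp5*. For *Fzd8*, which did not pass the variance test, the highest of mice 4 to 7 was -0.107 and the lowest of the others -0.0945, so they barely parted. The order of mice 4 to 7 was looked at after the values had been seen, and it carries no test. With median centring in place of loess, the 4 mice were lowest for 5 of these genes (*Fzd4*, *Fzd6*, *Sfrp5*, *Wnt5b* and *Wnt9a*) and for 7.01% of all probes, and highest again for *Fzd1* and *Fzd7* (17.4% of all probes).

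**Figure D3:**
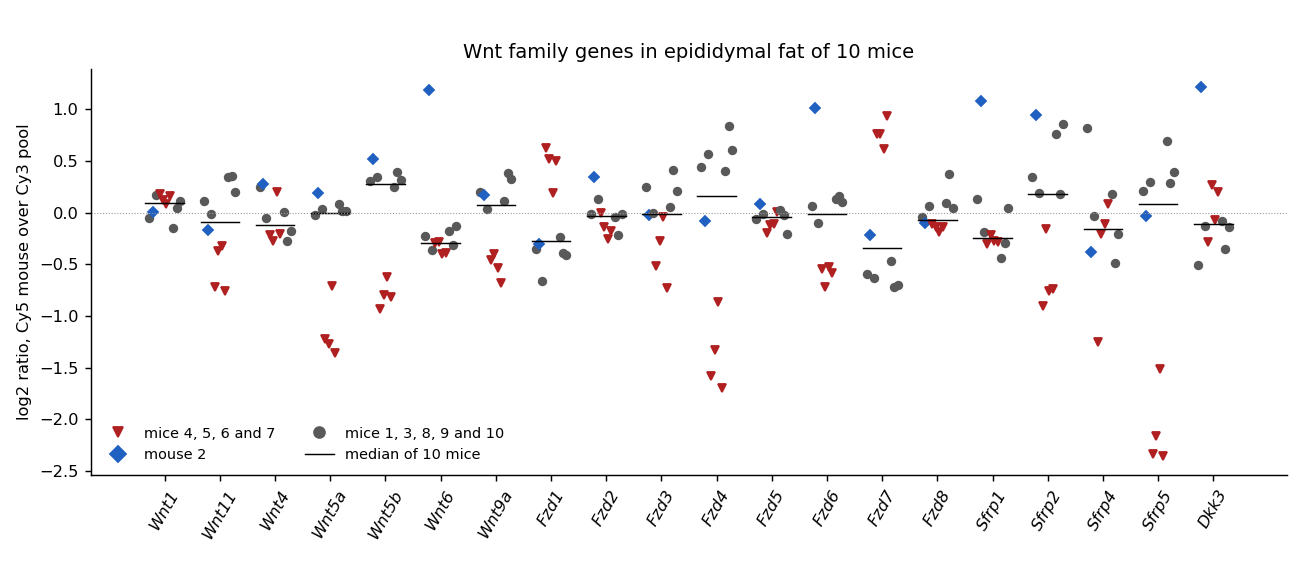
Log2 ratio of Cy5 (mouse) over Cy3 (reference pool) for the 19 genes tested and Wnt6, 1 symbol per mouse; the black bar is the median of the 10 mice. Mice 4 to 7 (red triangles) lie lowest for Sfrp5, Fzd4, Wnt5a and Wnt5b and highest for Fzd1 and Fzd7, and mouse 2 (blue diamonds) stands highest for Wnt6, Dkk3, Sfrp1 and Fzd6.

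The receptors split in direction. *Fzd4*, which also binds norrin and is known from blood vessels of the retina, was 0.44, -0.08 and 0.57 in mice 1 to 3, -1.58, -1.33, -0.87 and -1.70 in mice 4 to 7, and 0.40, 0.84 and 0.60 in mice 8 to 10. The ratios of mice 4 to 7 were lowest without overlap, and the highest mouse was 5.79-fold above the lowest (Cy5 SD 0.973, Cy3 SD 0.0849, adjusted p = 3.17e-06). *Fzd7*, a receptor of stem and progenitor cells, was -0.60, -0.22 and -0.64 in mice 1 to 3, 0.76, 0.76, 0.62 and 0.93 in mice 4 to 7, and -0.47, -0.71 and -0.70 in mice 8 to 10. Here mice 4 to 7 were the highest, again without overlap (Cy5 SD 0.733, Cy3 SD 0.0677, adjusted p = 2.28e-06). *Fzd1*, a close relative of *Fzd7*, ran the same way, between 0.20 and 0.63 in mice 4 to 7 and between -0.66 and -0.24 elsewhere. Its variance test over the 10 mice gave an adjusted p of 3.55e-06.

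The brighter *Fzd7* probe gave these values. The dimmer one was above background in Cy5 on 8 arrays and in Cy3 on 2, and its log2 ratio ranged only from -0.13 to 0.25, with an SD of 0.149 against 0.702. On that probe mouse 4 stood at -0.00 and mouse 2 at 0.24, so mice 4 to 7 parted from the others on the brighter probe alone. The r between the *Fzd7* probes over the 10 mice was 0.632.

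*Fzd6*, a receptor of planar cell polarity, was 0.07, 1.01 and -0.10 in mice 1 to 3, -0.55, -0.72, -0.52 and -0.58 in mice 4 to 7, and 0.14, 0.16 and 0.10 in mice 8 to 10. Here mice 4 to 7 were lowest and mouse 2 stood alone at the top (adjusted p = 5.13e-05). *Fzd3*, related to *Fzd6* and known from axon guidance, ranged from -0.73 in mouse 7 to 0.42 in mouse 9 (adjusted p = 0.000593), and mouse 6 at -0.04 was barely below the lowest of the others at -0.02. *Fzd2*, of the same subfamily as *Fzd1* and *Fzd7*, ranged from -0.26 to 0.35 (adjusted p = 0.327) and *Fzd5* from -0.21 to 0.08 (adjusted p = 0.157), with mice 4 to 7 mixed with the others in both. The other *Fzd2* probe was above background in Cy5 on 3 arrays and in Cy3 on none. For the other *Fzd5* probe this was 6 arrays in Cy5 and 4 in Cy3, and neither probe was tested. *Fzd8*, the closest relative of *Fzd5*, ranged from -0.18 to 0.37, with an SD of 0.512 in Cy5 and 0.505 in Cy3 (adjusted p = 0.928). The array of mouse 1 stood apart in both channels: the *Fzd8* spot read 359 in Cy5 and 277 in Cy3, against medians of 95.0 and 89.3 over the arrays. Without mouse 1, *Fzd8* still did not pass (adjusted p = 0.093).

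*Sfrp5* was the most uneven member. Its log2 ratio was 0.21, -0.03 and 0.30 in mice 1 to 3, -2.34, -2.17, -1.52 and -2.36 in mice 4 to 7, and 0.70, 0.28 and 0.40 in mice 8 to 10. All of mice 4 to 7 lay far below the other 6, and the highest mouse, mouse 8, was 8.32-fold above the lowest, mouse 7. The SD was 1.26 in Cy5 and 0.0412 in Cy3 (adjusted p = 2.34e-08). *Mest*, an imprinted gene of fat pad growth, and *Bmp3*, a secreted factor of the TGF-beta superfamily, are often named beside *Sfrp5* in fat. *Mest* lay between -2.41 and -0.997 in mice 4 to 7 and between -0.57 and 0.13 elsewhere, and *Bmp3* between -1.63 and -0.54 against 0.09 to 0.62.

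*Sfrp2*, a Wnt-binding protein of stromal cells, was 0.35, 0.95 and 0.19 in mice 1 to 3, -0.90, -0.16, -0.75 and -0.74 in mice 4 to 7, and 0.76, 0.18 and 0.86 in mice 8 to 10 (adjusted p = 2.12e-06). Again mice 4 to 7 were lowest, with mouse 5 nearest to the others. *Sfrp4*, an Sfrp of another subgroup than *Sfrp1*, *Sfrp2* and *Sfrp5*, did not follow that order: it was 0.82, -0.38 and -0.04 in mice 1 to 3, -1.25, -0.20, -0.11 and 0.08 in mice 4 to 7, and 0.18, -0.49 and -0.21 in mice 8 to 10. Mouse 4 was lowest and mouse 1 highest, 4.21-fold apart (adjusted p = 1.19e-06). *Sfrp1* ranged from -0.44 in mouse 8 to 1.08 in mouse 2, with mice 4 to 7 inside the range of the rest (adjusted p = 0.00296), and its call was lost without mouse 2 (adjusted p = 0.32) and with slide as a block (adjusted p = 0.134). *Dkk3*, a Dickkopf protein that differs from the others in acting little on the co-receptors, ranged from -0.50 in mouse 1 to 1.22 in mouse 2 (adjusted p = 0.00295).

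Mouse 2 was the highest of the 10 mice for 9 of the 19 genes tested, against 11.2% of all probes tested. It stood clearest for *Wnt6*, a ligand of epithelia, at 1.19 with the next mouse at -0.13, and *Wnt6* was above background in Cy5 in that mouse only (signal 273, against a median of 58.5). *Dkk3* followed at 1.22 with the next mouse at 0.27, *Sfrp1* at 1.08 with the next at 0.13, and *Fzd6* at 1.01 with the next at 0.16. Markers of motile cilia moved with these genes. Of 7 cilia genes on the array, 3 were above background in Cy5 on at least 5 arrays, and their mean log2 ratio was 1.17 in mouse 2 and between -0.53 and -0.19 in the other mice. The cilia regulator *Foxj1*, above background in Cy5 on only 4 arrays and not among these 3, was 1.95 in mouse 2. Of the 10 mesothelium markers, the keratins *Krt8* (1.91), *Krt18* (1.85) and *Krt19* (0.65), which other epithelia also make, were highest in mouse 2. The other 7 of that list were not, lying there between -1.11 for *Muc16* and -0.38 for *Bnc1*, and the mean of the list in mouse 2 was -0.12. The mean of the 8 pericyte and smooth muscle genes was 0.81 in mouse 2, its highest value. *Cnn1* (2.22), *Myh11* (1.29), *Tagln* (0.95), *Acta2* (0.83), *Des* (0.44) and *Cspg4* (0.34) were highest in that mouse. *Rgs5* (0.19) and *Notch3* (0.20) were not, and lay below their values in mice 1, 3, 8, 9 and 10. The part of these cells in the mouse 2 values was not tested.

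Markers of several cell types also moved with mice 4 to 7. Over all probes tested, these mice held the 4 lowest log2 ratios for 23.2% and the 4 highest for 19.2%. Of the 9 adipocyte markers tested, mice 4 to 7 were lowest for 8 and highest for *Cd36*, and the mean of the 10 markers above background lay between -2.25 and -1.29 in these mice and between -0.23 and 0.55 in the others. For endothelium they were lowest for 9 of 10 markers, with means of -1.07 to -0.75 against -0.12 to 0.30, and for pericytes and smooth muscle for 7 of 8, with means of -1.34 to -0.98 against -0.22 to 0.81. For mesothelium, the cell layer that covers the fat pad, they were lowest for 6 of 10, with means of -1.47 to -1.06 against -0.51 to 0.30. For T and B lymphocytes they were lowest for 4 of 7. Of the brown fat genes they were lowest for 2 of 3 tested, *Cidea* and *Cox8b*, and were mixed with the others for *Zic1*. The brown fat gene *Ucp1* was above background in Cy5 on 1 array and *Elovl3* on none, so neither was tested. Macrophage markers ran the other way, highest in mice 4 to 7 for 8 of 10, with means of 0.67 to 0.96 against -1.08 to 0.05. Of the 10 fibroblast and preadipocyte markers, 3 were highest and 2 lowest in these mice, near the shares of all probes. Their means overlapped (-0.11 to 0.17 against -0.26 to 0.09). Of 8 epididymal epithelium genes, 1 was above background on at least 5 arrays, and the mean of 3 sperm genes lay between -2.79 and -1.02 in all mice, highest in mouse 2. The part of the cell types in the values of *Sfrp5*, *Fzd4*, *Wnt5a*, *Fzd1* and *Fzd7* was not tested.

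**Figure D4:**
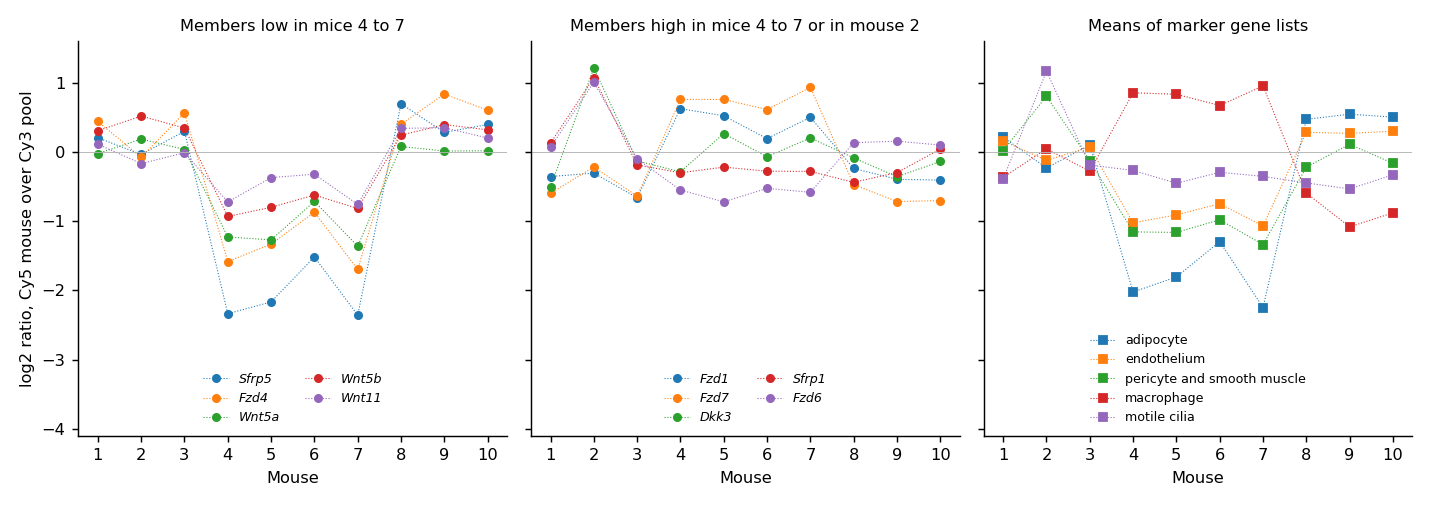
Log2 ratio of Cy5 (mouse) over Cy3 (reference pool) by mouse for 5 members low in mice 4 to 7 (left), for 5 members high in mice 4 to 7 or in mouse 2 (centre), and as the mean over marker gene lists (right); dotted lines only join the values of one gene or list, since the mice have no order. Sfrp5 and the adipocyte mean are low in mice 4 to 7, and Fzd1, Fzd7 and the macrophage mean are high there.

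Whether members moved with particular partners inside the larger set of mice was asked for 12 pairs of a gene with a gene or with a marker list mean. Because mice 4 to 7 stood apart, Pearson's r and Spearman's rho were taken over the 6 other mice, with exact two-sided permutation tests over 720 orders and adjustment over the 11 pairs that could be tested. *Wnt10b* was too dim for the last. No pair passed. The highest r was that of *Fzd4* and the endothelium list, 0.782 (exact p = 0.0792, adjusted p = 0.474; rho = 0.486, exact p = 0.356, adjusted p = 0.781), but without the 2 mice farthest from the *Fzd4* median it was -0.129. Leaving out the farthest mice also narrows the range of the first gene and leaves few mice, so no conclusion is drawn from such a fall. *Sfrp5* and the adipocyte list gave 0.766 (exact p = 0.0875, adjusted p = 0.474; rho = 0.543, exact p = 0.297, adjusted p = 0.781), and r was 0.47 without the 2 farthest mice. For *Sfrp2* and the fibroblast list r was 0.72 (exact p = 0.129, adjusted p = 0.474; rho = 0.771, exact p = 0.103, adjusted p = 0.781), and 0.391 without the 2 farthest mice. *Sfrp5* and *Wnt5a* gave -0.34 (exact p = 0.464, adjusted p = 0.638), *Sfrp5* and *Mest* -0.56 (exact p = 0.217, adjusted p = 0.477) and *Sfrp5* and *Bmp3* 0.389 (exact p = 0.45, adjusted p = 0.638), with rho between -0.60 and 0.371 and adjusted p for rho between 0.781 and 1. The r of the other 5 pairs lay between -0.09 and 0.605, with adjusted p of 0.477 or more. With median centring, 3 pairs passed: *Sfrp5* with the adipocyte list, *Sfrp2* with the fibroblast list and *Fzd4* with the endothelium list.

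In the wider pathway, 35 of 51 genes tested, out of 68 listed, varied more between mice than the pool did, against the 59.7% of all probes, and none was called the other way. Mice 4 to 7 were lowest for 18 of the 51 and highest for 5, against 23.2% and 19.2% of all probes. By role, the calls were 2 of 2 for secretion of Wnt ligands (*Porcn*, *Wls*), 3 of 7 for co-receptors and other receptors, 2 of 3 in the R-spondin branch, 1 of 3 among other secreted antagonists, 7 of 11 in the cytoplasm, 10 of 12 in the nucleus, 7 of 8 among transcripts known to rise with beta-catenin signalling, and 3 of 5 in planar polarity. *Axin2*, a feedback inhibitor that beta-catenin induces in many tissues, was between -0.70 and -0.51 in mice 4 to 7 and between 0.22 and 0.57 elsewhere. Its variance test over the 10 mice gave an adjusted p of 1.61e-05. The beta-catenin targets *Apcdd1* and *Nkd1*, both inhibitors of the pathway, were lowest in the same mice, at -2.07 to -1.47 against -0.30 to 0.64 and at -1.76 to -0.80 against -0.39 to 0.17. *Rspo1*, which raises receptor levels at the cell surface, was lowest there too (-2.04 to -1.66 against -1.12 to 0.65), as was the polarity gene *Prickle1* (-1.13 to -0.77 against -0.15 to 0.49).

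Not all of these transcripts moved in one direction. *Wisp2*, an adipose matricellular protein, was 0.69 to 0.76 in mice 1 to 3, -1.23 to -0.64 in mice 4 to 7, and -0.00, -0.55 and -1.22 in mice 8 to 10, so that mouse 10 was as low as mice 4 to 7. Of the 8 tested transcripts known to rise with beta-catenin signalling, mice 4 to 7 were the 4 lowest for 3. They were the 4 highest for 2, *Myc* and *Wisp1*, and neither for *Wisp2*, *Ccnd1* and *Nkd2*. Over all probes tested, the shares were 23.2% lowest and 19.2% highest. *Ccnd1* lay between 0.33 and 0.52 in mice 4 to 7 and between -0.50 and 0.45 elsewhere, with mouse 2 at 0.45 and mouse 3 next at -0.15. *Celsr1*, a cadherin of planar polarity found in epithelia, was 2.22 in mouse 2 and between -1.59 and -0.91 in the other 9. Beta-catenin itself (*Ctnnb1*) ranged from -0.03 to 0.22 (SD 0.0809, adjusted p = 0.00031) and *Lrp5* from 0.03 to 0.62 (adjusted p = 0.131). *Lrp6* ranged from -0.69 to -0.02 and the transcription factor *Tcf7l2* from -0.60 to 0.37, both with mice 4 to 7 lowest. Their variance tests over the 10 mice gave an adjusted p of 4.08e-05 for *Lrp6* and 0.00532 for *Tcf7l2*.

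**Figure D5:**
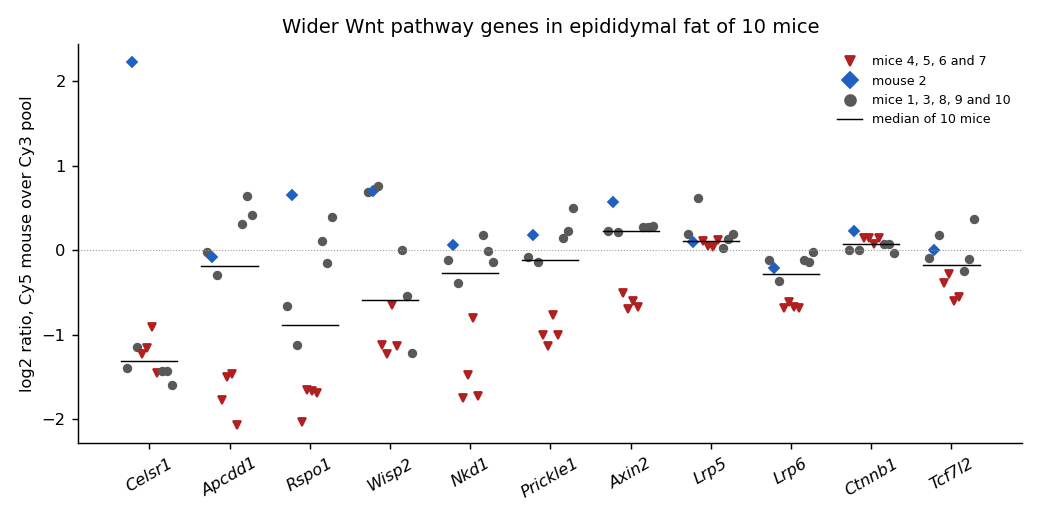
Log2 ratio of Cy5 (mouse) over Cy3 (reference pool) for the 6 called genes of the wider pathway with the largest SD and for Axin2, Lrp5, Lrp6, Ctnnb1 and Tcf7l2, 1 symbol per mouse; the black bar is the median of the 10 mice. Axin2 lies between -0.70 and -0.51 in mice 4 to 7 and at 0.22 or above in the others, and Celsr1 is at 2.22 in mouse 2 alone.

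The slide is the batch the files give. The arrays lay on 5 slides, 2 to a slide, all scanned on the same day, and mice 4 and 7 shared their slides with mice 3 and 8. On these slides *Sfrp5* was 0.30 in mouse 3 and -2.34 in mouse 4, and -2.36 in mouse 7 and 0.70 in mouse 8. Mice 5 and 6 lay together on another slide, with *Sfrp5* at -2.17 and -1.52. In limma's moderated F test for the slide, 0 of the 19 genes and 0 of 25049 probes were called after adjustment. None of the 19 had an unadjusted p under 0.05, against 1010 of all probes (4.03%). With 2 arrays to a slide and such differences within slides, the test could hardly call a slide effect, and no conclusion is drawn from it.

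Promoter sequence was set beside these orders, as a description only. RefSeq promoter windows (GRCm38.p6) matched 25 of the 37 genes with 28 windows, of which the 250 bases before each start were searched on both strands for the TCF/LEF motif CTTTGAT, the C/EBP motif TTGCNNAA and the core of the hypoxia response element, ACGTG, none of which contains another. No window was read for *Dkk3*, *Dkk4*, *Fzd2*, *Fzd3*, *Fzd6*, *Fzd8*, *Sfrp1*, *Sfrp4*, *Wnt5a*, *Wnt7b*, *Wnt8a* and *Wnt10a*. The TCF/LEF letters were in 2 of the 28 windows (*Wnt5b*, *Wnt11*) and in 3.21% of all 32851 windows. The C/EBP letters were in 3 (*Fzd1*, *Sfrp2*, *Wnt3*; 9.56% of all windows) and the ACGTG core in 4 (*Fzd9*, *Wnt5b*, *Wnt9a*, *Wnt11*; 16.6%). Windows are shown for *Sfrp5*, the most uneven member, for *Fzd1*, which ran opposite to it, and for the *Wnt5b* starts that held a match, with matches in capitals.
Sfrp5, chr19:42202253-42202502, - strand, GC content 59.6%: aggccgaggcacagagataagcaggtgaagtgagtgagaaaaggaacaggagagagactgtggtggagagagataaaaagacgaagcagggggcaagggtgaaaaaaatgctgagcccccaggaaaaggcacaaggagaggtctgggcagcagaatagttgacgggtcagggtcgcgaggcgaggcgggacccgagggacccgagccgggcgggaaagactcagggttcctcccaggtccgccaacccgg
Fzd1, chr5:4758217-4758466, - strand, GC content 51.2%: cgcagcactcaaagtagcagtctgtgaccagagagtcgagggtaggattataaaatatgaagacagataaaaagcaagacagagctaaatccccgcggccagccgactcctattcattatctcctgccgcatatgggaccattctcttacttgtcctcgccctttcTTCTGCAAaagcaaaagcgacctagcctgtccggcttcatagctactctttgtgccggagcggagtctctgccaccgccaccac
Wnt5b, chr6:119544348-119544597, - strand, GC content 75.2%: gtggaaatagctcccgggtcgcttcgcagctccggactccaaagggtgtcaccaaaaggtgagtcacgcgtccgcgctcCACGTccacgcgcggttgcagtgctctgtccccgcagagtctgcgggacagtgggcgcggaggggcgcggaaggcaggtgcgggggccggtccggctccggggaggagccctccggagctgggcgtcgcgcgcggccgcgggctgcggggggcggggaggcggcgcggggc
Wnt5b, chr6:119449387-119449636, - strand, GC content 55.6%: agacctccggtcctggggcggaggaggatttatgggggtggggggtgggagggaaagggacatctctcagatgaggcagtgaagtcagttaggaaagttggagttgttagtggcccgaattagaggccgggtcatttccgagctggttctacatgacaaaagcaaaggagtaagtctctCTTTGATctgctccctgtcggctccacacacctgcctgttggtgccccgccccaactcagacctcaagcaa
The *Sfrp5* window held none of the 3 motifs, the *Fzd1* window held the C/EBP letters, and the *Wnt5b* windows held the ACGTG core at one start and the TCF/LEF letters at another.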

How the data were processed

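The arrays were Agilent whole mouse genome arrays with 2 dyes. The deposited scanner files hold the mean signal and median local background of each spot as intensity, and the log10 ratio that Agilent Feature Extraction 10.7.3.1 computed, per the file headers. The table deposited by the authors holds log2 values of 30733 features with equal medians (8.5192); its columns followed log2 Cy5 (r between 0.993 and 0.999), and how it was normalized is not given in the sources used here. It served as an alternative, on its own log2 scale.

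Intensities of 59305 spots were corrected with normexp (offset 50), normalized by loess within and Aquantile between arrays (limma 3.58.1, R 4.3.3), spots marked as outliers were left out, and spots of one probe were averaged to 55681 probes. The probe with the highest mean signal stood for a gene. Median Cy5 signals were 54.8 to 81.3 over a background of 32 to 37, no spot was saturated, and the number of arrays limits the precision. The labels do not say more than that the 10 samples are separate mice. Python 3.11.15 with numpy 2.4.6, pandas 2.3.3 and scipy 1.17.1 was used for the variance and permutation tests; the scripts were tested on simulated data. No deposited column was left without a sample.

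The members, marker lists, pathway list, pairs and alternatives were chosen with earlier results of these data known. Each member is named. The 8 whose log2 ratio had the largest SD, of those detected on all 10 arrays in Cy5 and Cy3, are given for every mouse. Of the pathway, the 6 called genes with the largest SD are named with *Axin2*, *Lrp5*, *Lrp6*, *Ctnnb1* and *Tcf7l2*. *Myc*, *Wisp1*, *Ccnd1*, *Nkd2*, *Porcn* and *Wls* were added after their values were seen. Markers named with mouse 2 and the brown fat genes named were chosen likewise. A set of mice was held apart where the first component had a gap of at least 0.4 of its range between sets of 3 or more mice.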

Additional observations from a re-analysis of the deposited data

Results flagged for a closer look

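Of 21 genes looked at, 5 had 1 mouse far from the other 9 by the gap to the next mouse as a share of the whole range. Chance alone sets about 1 in 20 such groups apart when the groups are independent. These genes were measured in the same mice, and mouse 2 also stood apart in the principal components, so that rate is no baseline for the count. The share of all probes that meet the same rule was not counted. The count therefore does not set these genes apart from the rest of the array. Mouse 2 was the high one for *Sfrp1* (gap share 0.625), *Dkk3* (0.552) and *Fzd6* (0.494). It was also the high one for *Wnt6* (0.829), which was looked at because the pool was above background on 7 arrays; in Cy5 the other 9 mice were not above background, so that the gap is taken to values with no measured level. The motile cilia list was highest in the same mouse, and its part in these values was not tested. Mouse 9 was the high one for *Fzd8* (0.495), at 0.37 with the next mouse at 0.10.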

How the results depend on the processing

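The count of 15 genes that varied more between mice than the pool lay between 11 and 16 under the alternatives for background, normalization and slide, was 13 of 17 with the filter set to all 10 arrays, and lay between 14 and 15 without any 1 mouse. With no filter, 18 of the 44 probes were called, beside 26.1% of all probes. Without mice 4 to 7 it was 5, and without mouse 2 as well 0 (0.279% of all probes); these, like the order of mice 4 to 7 and its alternatives, were added after seeing the data, and fewer mice were tested in them. The wider pathway count of 35 was 14 without normalization between arrays, 15 without mice 4 to 7 and 1 without mouse 2 as well, and 33 to 39 without any 1 mouse. Mice 4 to 7 were lowest for 5 genes with median centring. No pair passed except 3 with median centring, and leaving out any 1 mouse gave 0. Where the cause is not the smaller number of mice, the cause was not tested.

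The log2 of the Cy5 SD over the Cy3 SD changed sign for *Wnt1* (main value -0.09) with median centring (1.22, adjusted p = 0.0435) and lay between -0.29 and 0.16 without any 1 mouse; for *Fzd2* with median centring (-0.20) and without normalization between arrays (-0.49); for *Fzd8*, between -0.0011 and 1.10 without any 1 mouse, -0.10 without mice 4 to 7 and -0.17 without mouse 2 as well; and in these last settings for *Wnt5a* (-0.27, -0.43) and, in the second, *Dkk3* (-0.21). The r over 6 mice changed sign, never past the threshold, for *Sfrp5* with *Mest* (0.542 with median centring; -0.87 to 0.0208 without any 1 mouse), *Sfrp5* with *Wnt5a* (0.791 with median centring, 0.192 on the deposited values, 0.639 without the 2 farthest mice; -0.81 to 0.898 without any 1 mouse), *Sfrp5* with *Bmp3* (-0.43 to 0.951 without any 1 mouse), *Sfrp1* with *Mest* (-0.013 on the scanner's ratio, -0.099 on the deposited values, -0.013 over all probes, -0.47 without the 2 farthest mice; -0.46 to 0.353 without any 1 mouse), *Dkk3* with mesothelium (0.353 with median centring, 0.249 without the 2 farthest; -0.28 to 0.15 without any 1 mouse), *Wnt4* with mesothelium (0.0192 without the 2 farthest; -0.28 to 0.172 without any 1 mouse), *Wnt5a* with macrophages (-0.022 on the deposited values, -0.11 without the 2 farthest; -0.00085 to 0.817 without any 1 mouse), *Sfrp4* with fibroblasts (-0.33 without the 2 farthest) and *Fzd4* with endothelium (-0.13 without the 2 farthest). Low signal over background limits the dim genes, *Wnt4*, *Wnt16* and the second *Fzd7* probe among them.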
